A study of Mus musculus with 28 samples.

Results

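Life siRNA, one of 3 small interfering RNAs aimed at cyclin D1 itself, was set against the other 4 targeting siRNAs of the series in the same cells. The comparison used 10 of 28 RNA-seq libraries: 2 with Life siRNA and 8 with FLAG, HA, Qiagen or Nature siRNA. The cells were labelled as mouse embryonic fibroblasts (strain background C57BL/6x129Sv) transformed with RAS and DNP53, and each library came from clone 12 or clone 14 of the line labelled Ctag-Cyclin D1. All 10 libraries therefore shared the tagged cyclin D1, RAS and DNP53, and each clone gave 1 library per siRNA. FLAG and HA siRNAs target the epitope tags, while Qiagen, Nature and Life siRNAs target cyclin D1. The siRNAs were delivered overnight with the lipid reagent RNAiMAX and RNA was taken the next morning. Both tagged clones without treatment were used as background, and no library with the control siRNA labelled SCR entered the comparison. The clones differed in markers of the labelled cell type. The fibroblast collagen gene Col1a2 stood at 1780 to 2480 CPM (reads of a gene scaled to the size of the library) in clone 12 but at 0.20 to 2.26 CPM in clone 14, and the epithelial keratin gene Krt19 at 33.8 to 90.0 CPM in clone 12 and 1096 to 2164 CPM in clone 14. Whether both clones are the same kind of cell was not tested, so the values of each clone are given beside the main results. The titles carry an n of 3 or 4 that the sources used here do not explain, so each library counted as 1 sample. Clone entered each fit as a block, which takes out the level of each clone. A p-value here reflects how libraries scatter once clone and siRNA are accounted for. With 1 library per clone and siRNA, that scatter holds technical scatter together with differences between the clones in their response. Differences in level between the clones are not part of it.

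D-type cyclins (Ccnd1, Ccnd2 and Ccnd3) bind the kinases CDK4 and CDK6, and the complexes phosphorylate the retinoblastoma protein, which releases E2F factors and lets cells enter S phase. An siRNA is loaded into an Argonaute protein and directs cleavage of a transcript that pairs with it along its whole length. Its seed, a short stretch near the 5′ end of the guide strand, can also pair with sites in the 3′ untranslated regions (3′UTRs) of other transcripts and lower them, in the way a microRNA does. The sources used here do not give the sequence of Life siRNA.

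A stretch of 7 bases recurred in the 3′UTRs of the genes that were lowest with Life siRNA, and the windows below show it in cyclin D1, in cyclin D3 and in 6 of the lowest genes. The heptamer was chosen after the values were seen: it is the one of 16384 possible heptamers whose share of 3′UTRs among the 30 lowest called genes most exceeded its share among all genes. Each window is the mRNA strand from 5′ to 3′, read from the GENCODE M21 transcripts (GRCm38, the assembly of mm10), with the heptamer in capitals.
Ccnd1 (coding sequence, chr7:144932733-144932754, minus strand): ccaggaacagattgAAGCCCTt
Ccnd3 (3′UTR, chr17:47599583-47599604, plus strand): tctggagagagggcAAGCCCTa
Eif4ebp2 (3′UTR, chr10:61433600-61433621, minus strand): ttaggttgatgaatAAGCCCTt
Zfp637 (3′UTR, chr6:117845801-117845822, plus strand): ccattgagagtacaAAGCCCTc
4833439L19Rik (3′UTR, chr13:54551301-54551322, minus strand): ctaacctcagagagAAGCCCTg
Nudt2 (3′UTR, chr4:41480710-41480731, plus strand): aggtgacagcaaggAAGCCCTg
Maf1 (3′UTR, chr15:76354207-76354228, plus strand): gggccagtagtttgAAGCCCTa
Hmga2 (3′UTR, chr10:120362928-120362949, minus strand): acgctgctagacacAAGCCCTg
The Maf1 window shares a run of 10 bases with the Ccnd1 window, the Eif4ebp2, 4833439L19Rik and Nudt2 windows share 8, and the Ccnd3, Zfp637 and Hmga2 windows share the 7 of the heptamer. Among the named genes the longest run shared with the Ccnd1 window was 12 bases. It lies in the coding sequence of Nbeal1, a gene that was higher with Life siRNA. A match is a description of the letters and does not show that the siRNA pairs there.

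The cyclin D1 transcript, the target of all 5 siRNAs in these clones, was low with Life and Nature siRNA and higher with the other 3. Ccnd1 (chr7:144929931-144939831) stood at 73.0 CPM in clone 12 and 53.1 in clone 14 with Life siRNA, and at 64.1 and 50.4 with Nature siRNA. The levels were 181.3 and 132.4 CPM with FLAG, 224.8 and 219.5 with HA, 326.1 and 321.8 with Qiagen siRNA, and 1010 and 1449 in untreated cells. In each clone the order from low to high was Nature, Life, FLAG, HA, Qiagen. Life and Nature siRNA differed by 0.14 on the log2 scale (SE 0.24, edgeR adjusted p = 0.746), which does not show that they act alike. Against the mean of the other 4, Ccnd1 was lower by a log2 fold change of -1.34 (SE 0.21, edgeR adjusted p = 0.00116), with -1.23 in clone 12 and -1.47 in clone 14 taken alone. That call was lost without Life clone 14 (-1.07, adjusted p = 0.0758) and without the 3 libraries holding over 2% ribosomal RNA precursor (-1.05, adjusted p = 0.092).

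Cyclin D3 was lower with Life siRNA than with any of the other 4 siRNAs. Ccnd3 (chr17:47505051-47599689) stood at 24.1 CPM in clone 12 and 33.1 in clone 14 with Life siRNA, a mean of 28.6 ± 6.37 (SD, n = 2). The values were 95.3 and 122.3 CPM with FLAG, 105.2 and 143.6 with HA, 46.5 and 83.7 with Qiagen, and 139.2 and 115.5 with Nature siRNA. Both Life libraries lay below all 8 others, and also below untreated cells at 57.6 and 60.3 CPM. FLAG, HA and Nature siRNA stood above untreated cells in both clones, and Qiagen siRNA below them in clone 12 and above them in clone 14. The Life differences from FLAG, HA and Nature siRNA are therefore larger than those from untreated cells. The log2 fold change against the mean of the 4 was -1.86 (SE 0.20, edgeR adjusted p = 5.41e-05), close to -1.90 in clone 12 and -1.79 in clone 14 taken alone. It was smallest against Qiagen siRNA (-1.17, SE 0.22, adjusted p = 0.00475) and stood at -1.93 against FLAG, -2.12 against HA and -2.19 against Nature siRNA (adjusted p = 3.22e-05 for Nature). Ccnd3 kept its call under every alternative tried, from -2.08 to -1.74. The comparison with Nature siRNA is the one at a like level of Ccnd1, so there the Ccnd3 difference stood beside a Ccnd1 difference within its error.

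Cyclin D2 was higher with Life siRNA than with the mean of the other 4, and the difference was largest against Nature siRNA. Ccnd2 (chr6:127125162-127152188) stood at 378.6 and 708.2 CPM with Life siRNA, at 230.7 and 630 with FLAG, 175.4 and 395.6 with HA, 280.6 and 614.8 with Qiagen, and 46.0 and 145.7 with Nature siRNA. Life siRNA was above the other 4 in each clone, but the levels of the clones overlapped across siRNAs. Untreated cells stood at 279.6 CPM in clone 12 and 1045 in clone 14. The Life level was thus above untreated cells in clone 12 and below them in clone 14. The log2 fold change was 1.12 against the mean of the 4 (SE 0.19, edgeR adjusted p = 0.00218), 2.69 against Nature and 1.00 against HA siRNA (adjusted p = 0.0278). It was 0.47 against FLAG (adjusted p = 0.454) and 0.34 against Qiagen siRNA (adjusted p = 0.535). Taken alone, clone 12 gave 1.32 and clone 14 gave 0.87. With Nature siRNA left out of the mean it was 0.60 (adjusted p = 0.093), and without Life clone 12 it was 0.73 (adjusted p = 0.163). Ccnd2 has the heptamer 2 times in its 3′UTR and was not lower with Life siRNA. The kinases that the D cyclins bind did not pass the test: Cdk4 was -0.30 (adjusted p = 0.126) and Cdk6 was 0.57 (adjusted p = 0.217).

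**Figure D1:**
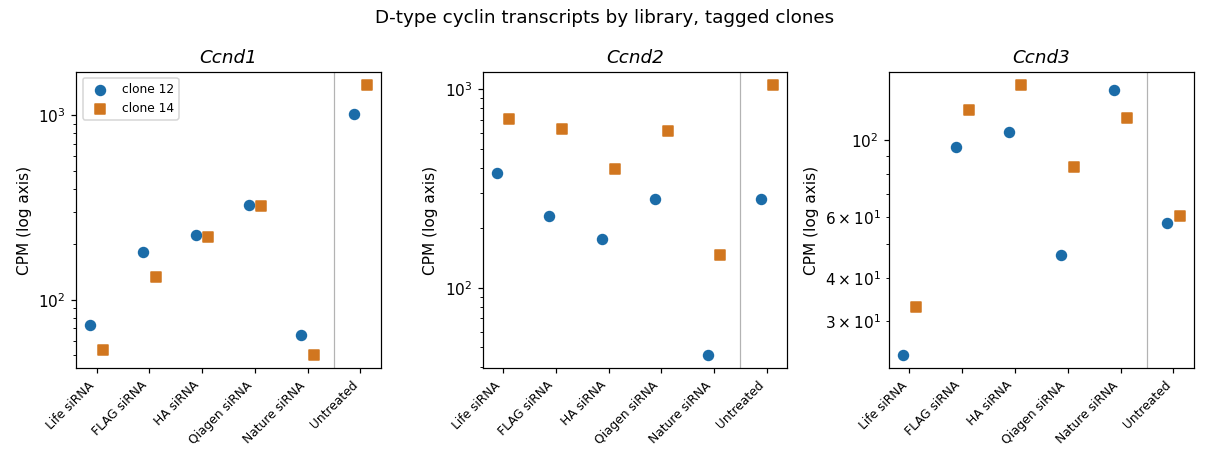
CPM on a log axis for Ccnd1, Ccnd2 and Ccnd3 in each library, by siRNA, with circles for clone 12 and squares for clone 14; untreated cells are at the right of each panel. Life siRNA shares its low Ccnd1 level with Nature siRNA and gives the lowest Ccnd3 level, 24.1 and 33.1 CPM.

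Over all genes, edgeR called 1625 of 14924 tested genes between Life siRNA and the mean of the other 4 at a Benjamini-Hochberg adjusted p below 0.05 (10.9%), 857 higher (5.74%) and 768 lower (5.15%). Taking each clone alone, 1616 of the called genes kept a common sign. The calls rest on both clones together, so this count is a description. With 1 Life library per clone, a difference between the clones in their Life response could not be settled. The lower genes stood further apart from the other libraries than the higher genes did. Both Life libraries lay below all 8 others for 443 of the 768 lower genes (57.7%, against 4.7% of all genes tested), and above all 8 for 192 of the 857 higher genes (22.4%, against 2.59% of all). Both sets were called on these same libraries, so shares above those of all genes follow from the call and are a description. At a change of at least 2-fold, 136 genes were lower and 150 higher; with a mean of at least 5 CPM as well, 111 were lower and 61 higher. Counts rested on both Life libraries: without Life clone 12 edgeR called 435 genes and without Life clone 14 it called 269, with 1 Life library then assumed to vary like the other groups. Without Life clone 14, Nature clone 14 and HA clone 12, the libraries with over 2% ribosomal RNA precursor, it called 238. A fit without the clone block called 119.

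The 12 lowest genes that the rule selected had at least 5 CPM on average, and their Life library lay outside the range of the other 4 in each clone. That rule sets them below each of the 4 siRNAs, so the single comparisons, which also share the Life libraries, are a description. Their log2 fold changes against the single siRNAs ran from -2.92 to -1.17. In both clones the Life level of all 12 was also at or below that of untreated cells, as it was for 669 of all 768 called lower genes and for 5325 of all 14924 genes tested. Nanos1 lost its call without the clone block (adjusted p = 0.227), and the other genes of the 12 held theirs in every alternative tried.

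The lowest was Eif4ebp2 (chr10:61428491-61452790), which encodes a repressor of cap-dependent translation that binds eIF4E. Its level was 7.47 CPM in clone 12 and 4.03 in clone 14 with Life siRNA, and from 28.6 to 51.9 and from 23.4 to 34.6 CPM with the other siRNAs (log2 fold change -2.54, SE 0.22, edgeR adjusted p = 9.33e-06). Zfp637, a zinc finger protein gene, stood at 5.60 and 3.30 CPM against 18.7 to 37.7 CPM over the other 8 libraries (-2.42, SE 0.25, adjusted p = 4.55e-05). The uncharacterised transcript 4833439L19Rik held nearly the same level in both clones, 15.7 and 14.9 CPM, against 68.9 to 90.2 CPM in the other 8 libraries (-2.40, SE 0.14, adjusted p = 4.58e-07). All 3 genes were low in both clones with Life siRNA, with no overlap, a separation that the selection rule favours.

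Nudt2, which encodes a hydrolase of diadenosine tetraphosphate, stood at 7.47 and 6.75 CPM against 28.9 to 39.0 CPM (-2.28, SE 0.14, adjusted p = 4.58e-07). Med21, a subunit of the Mediator complex that links transcription factors to RNA polymerase II, stood at 12.8 and 14.0 CPM against 53.9 to 80.0 CPM (-2.27, SE 0.15). Maf1, a repressor of RNA polymerase III, stood at 14.7 and 11.4 CPM against 37.2 to 73.9 CPM (-1.97, SE 0.14). Adat2, the catalytic subunit of a tRNA adenosine deaminase, stood at 7.58 and 3.91 CPM against 17.3 to 27.1 CPM (-1.97, SE 0.16). In each of these 4 the highest Life library was below the lowest of the other 8. The selection rule favours this, and it held for 701 of all 14924 genes tested.

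Hmga2, which encodes an architectural chromatin protein, was the most abundant of the 12. It stood at 768.5 CPM in clone 12 and 504.2 in clone 14 with Life siRNA, and between 1744 and 3643 CPM in the other 8 libraries (-1.76, SE 0.20, edgeR adjusted p = 7.72e-05). The difference was -1.54 against Nature siRNA and -2.22 against Qiagen siRNA, and untreated cells stood at 2519 and 2207 CPM. Arl2bp, whose product binds the small GTPase ARL2, stood at 23.3 and 22.6 CPM against 51.8 to 120.7 CPM (-1.91, SE 0.14). The RNA-binding repressor gene Nanos1 (-1.81, SE 0.23) and the predicted gene LOC101056043 (-1.98, SE 0.22) were low in abundance, at 1.42 to 3.99 CPM with Life siRNA. Ccnd3 completed the 12.

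**Figure D2:**
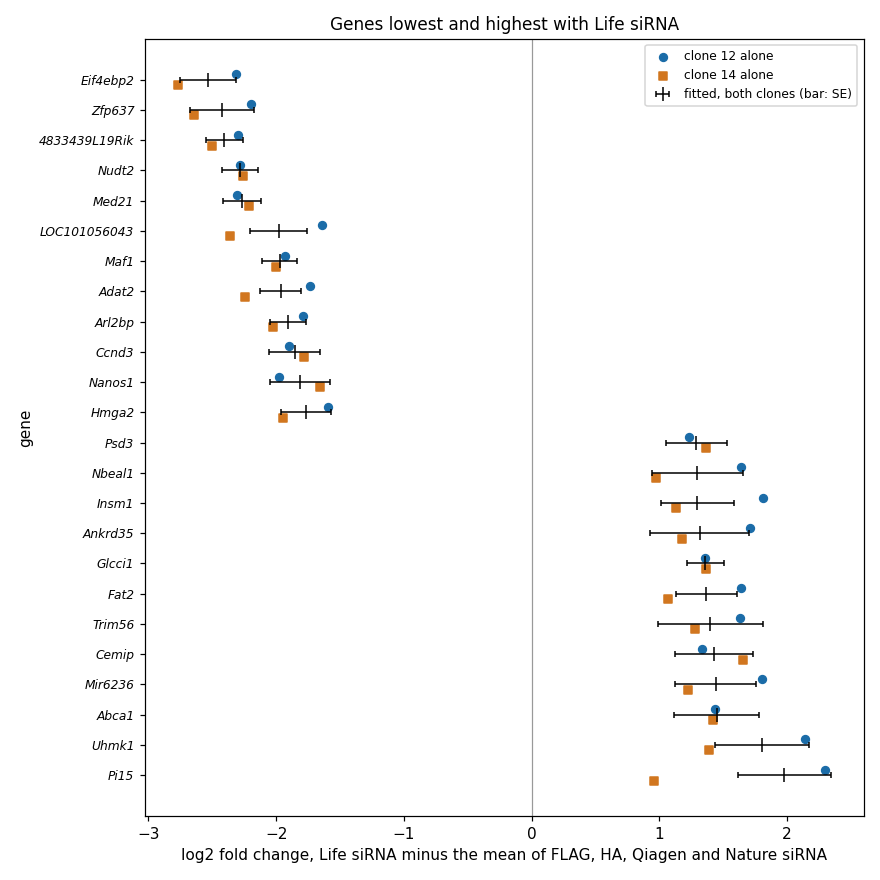
Log2 fold change of Life siRNA against the mean of the other 4 for the 12 lowest and 12 highest genes that the rule selected, with the fitted value and its SE in black and each clone alone as a circle or square. The lowest genes lie between -2.54 and -1.76; among the highest, Pi15 is at 2.30 in clone 12 and 0.96 in clone 14.

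The heptamer AAGCCCT was in the 3′UTR of 19 of the 30 lowest genes averaging 5 CPM or more (63.3%) and of 1679 of all 13543 genes with a 3′UTR of at least 50 bases (12.4%), taking 1 principal transcript per gene. These 30 genes chose the heptamer, so their share is a description. Ranking the same called genes by clone 12 alone or by clone 14 alone gave the same leading heptamer, in 18 and 17 of 30. Both rankings were drawn from genes called in the fit of both clones, so they are not separate evidence. The other genes called lower entered the choice only within the share over all genes, and were called on the same libraries. Among them the heptamer was in 198 of 706 (28%), against 87 of 826 called higher (10.5%) and 1375 of 11981 not called (11.5%). Its reverse complement AGGGCTT was in 2 of the 30 lowest (6.67%) and in 12.7% of the other lower genes, near its 12.3% over all genes. The median 3′UTR was 1118.5 bases in the 30 lowest, 1033 in the other lower genes, and 1049 over all. In coding sequence the heptamer was in 7 of the 30 lowest (23.3%), in 30.2% of the other lower genes, in 19.9% of the higher genes and in 19.4% of all.

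Outside the 30 lowest genes, the share called lower was larger with a match than with none. It was 14.9% of 261 genes in which the heptamer is followed by A, 11.4% of 1399 with the heptamer and no A, 11.2% of 587 with only its last 6 bases followed by A, and 3.92% of 11266 with none of these. Among the 3 kinds of match the order was not the same in every quartile of 3′UTR length. In the second quartile the shares were 14.3%, 19.9% and 18.1%, and in the third 17.1%, 13.7% and 17.0%, against 4.49% and 4.05% with none. In the longest quartile the shares fell in the order given, at 13%, 6.96% and 5.63%, against 2.46% with none. In the shortest they also fell, with 3 of 10, 15 of 74 and 2 of 28 genes called lower, against 4.27% with none. Median log2 fold changes over all quartiles together were small, at -0.05, -0.01, 0.00 and 0.04. In the shortest quartile (up to 446 bases) the median was -1.04 over 10 genes with the heptamer and A, -0.28 over 74 with the heptamer and no A, -0.08 over 28 with the last 6 bases and A, and -0.04 over 3279 with none. In the second quartile the medians were -0.16, -0.19, -0.18 and 0.00, in the third -0.17, -0.08, -0.08 and 0.08, and in the longest 0.03, 0.07, 0.13 and 0.18. Over all quartiles the same genes gave medians of -0.06, -0.01, -0.02 and 0.03 for Nature siRNA against the mean of FLAG, HA and Qiagen siRNA, where no Life library enters. In the shortest quartile these medians were 0.26, 0.10, 0.08 and 0.12, and in the second -0.04, 0.05, 0.11 and 0.06. In the third they were -0.04, 0.02, 0.02 and -0.02, and in the longest -0.12, -0.08, -0.11 and -0.09. These are genes of the same 10 libraries and are not independent, so no test is given.

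Not every low gene has the heptamer, and not every gene with it was low. Of the 12 lowest, it is in the 3′UTR of Eif4ebp2 (2 times), Zfp637, 4833439L19Rik, Nudt2, Maf1, Hmga2 and Ccnd3. Nanos1 and Ccnd1 have it once in the coding sequence, and Zfp637 has it 4 times there besides. The principal transcripts of Med21, Adat2 and Arl2bp lack it, and LOC101056043 had no transcript in the annotation. Of the higher genes described below, Trim56, Fat2 and Nbeal1 have it in the 3′UTR. In the coding sequence these 3 genes have it 2 times each, and Abca1 has it 1 time.

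**Figure D3:**
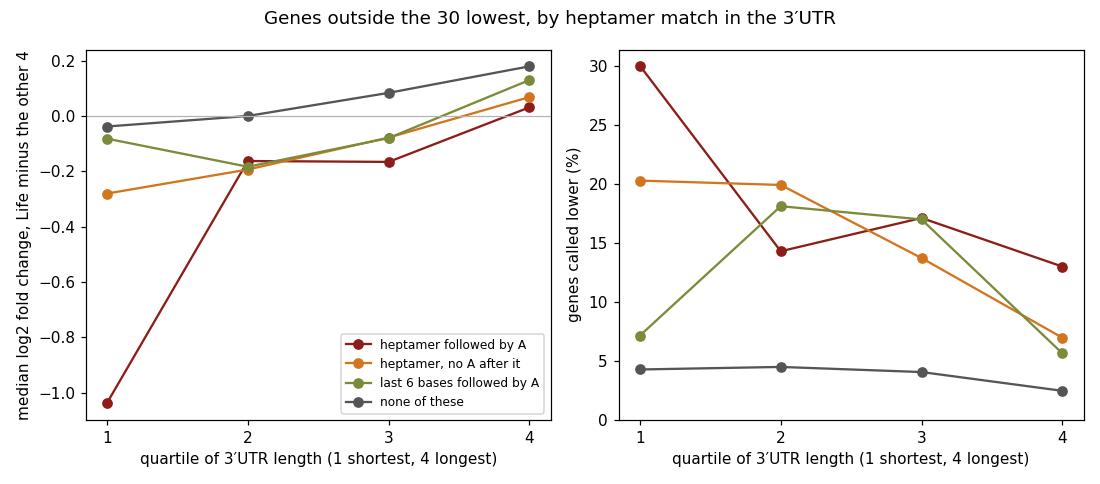
Genes outside the 30 lowest by quartile of 3′UTR length and by match to the heptamer: median log2 fold change of Life siRNA against the other 4 (left) and percentage of genes called lower (right). Genes with none of the matches have the lowest percentage called lower in every quartile; the leftmost point for the heptamer followed by A holds 10 genes.

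The genes highest with Life siRNA were less uniform across siRNAs and clones. Of the 12 selected, 3 passed the test against FLAG, 9 against HA, 3 against Qiagen and 8 against Nature siRNA. In both clones 8 of the 12 stood above untreated cells, 1 at or below, and 3 were mixed; over all 857 called higher genes the counts were 573, 100 and 184, and over all 14924 tested 4821, 5325 and 4778. Uhmk1, whose kinase phosphorylates the CDK inhibitor p27, stood at 21.5 and 8.94 CPM with Life siRNA, from 2.43 to 8.10 CPM in the other 8 libraries, and at 18.5 and 19.6 CPM in untreated cells. Trim56, an E3 ubiquitin ligase of antiviral signalling, stood at 17.1 and 6.45 CPM with Life siRNA and at 17.2 and 16.2 CPM untreated. For both genes the Life level was above the other siRNAs of the clone without being above untreated cells in both clones.

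Glcci1, a glucocorticoid-induced transcript, was the most even of the 12. It stood at 32.1 and 30.6 CPM with Life siRNA, 28.1 and 19.4 with Qiagen, 10.7 and 12.1 with FLAG, 8.50 and 7.08 with HA, and 9.47 and 11.8 with Nature siRNA. The log2 fold change was 1.36 against the mean of the 4 (SE 0.14, edgeR adjusted p = 5.4e-05), and 0.41 against Qiagen siRNA (adjusted p = 0.264). It was the only one of the 12 that held its call in every alternative tried. Abca1, the cholesterol efflux transporter, stood at 11.3 and 8.67 CPM, with at most 9.24 and 6.86 CPM in the other libraries of each clone (1.45, SE 0.33, adjusted p = 0.0123). Its difference was 2.63 against Nature and 0.31 against Qiagen siRNA (adjusted p = 0.773), and with Nature siRNA left out of the mean the call was lost (1.06, adjusted p = 0.0811).

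Several higher genes were expressed mainly in 1 clone. Pi15, a secreted peptidase inhibitor gene, stood at 40.3 CPM in clone 12 and 0.58 in clone 14, against at most 12.4 and 0.40 with the other siRNAs (1.98, SE 0.37, adjusted p = 0.00319). Cemip, needed for hyaluronan breakdown, stood at 82.5 and 17.3 CPM (1.43, SE 0.31), and Psd3, an exchange factor for ARF6, at 61.5 and 3.84 CPM (1.29, SE 0.24). Insm1, a neuroendocrine transcription factor, stood at 0.28 and 46.3 CPM (1.30, SE 0.28), the protocadherin gene Fat2 at 2.53 and 22.3 CPM (1.37, SE 0.24), and Ankrd35 at 1.16 and 21.8 CPM (1.32, SE 0.39). Nbeal1, a BEACH domain protein gene, was at 49.8 and 33.1 CPM (1.30, SE 0.36, adjusted p = 0.0314). Leaving out Life clone 12 ended the calls of Pi15 (0.70, adjusted p = 0.724), Uhmk1, Abca1, Cemip, Trim56, Fat2, Ankrd35, Nbeal1, Psd3 and Mir6236. Leaving out Life clone 14 ended those of Abca1, Cemip, Trim56, Ankrd35, Insm1, Nbeal1 and Mir6236.

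Measures of ribosomal RNA and of transcript length are given beside the higher genes, but no link to those genes was tested. The ribosomal RNA precursor Rn45s took 1.52% and 3.48% of counts in the Life libraries and from 0.35% to 2.42% in the other 8. In clone 12 its share was 2.22% with HA siRNA, above that with Life siRNA. The microRNA locus Mir6236, which is itself among the 12 selected higher genes, stood at 179.3 and 180.9 CPM against 25.2 to 153.9 CPM (1.44, SE 0.32, edgeR adjusted p = 0.00968). Rn45s itself was at 1.43 (adjusted p = 0.0659). Transcript length was described as well. From the shortest to the longest quintile of transcripts, the median log2 fold change ran from -0.13 through -0.05, 0.02 and 0.09 to 0.25. In the shortest quintile 57 genes were called higher and 164 lower, and in the longest 323 higher and 70 lower. Median transcript length was 7111 bases for the named higher genes, 1857 for the named lower genes other than Ccnd3, and 3004 for all. The trend was largest against HA (-0.27 to 0.36) and Nature siRNA (-0.27 to 0.34) and smallest against Qiagen siRNA (0.07 to 0.01). With the trend removed from each library, edgeR called 2073 genes, and 25 of the 26 genes made up of the D cyclins, the 12 lowest and the 12 highest were still called; Ankrd35 was not (1.25, adjusted p = 0.0506). What part RNA quality or library preparation had in the higher genes was not tested.

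**Figure D4:**
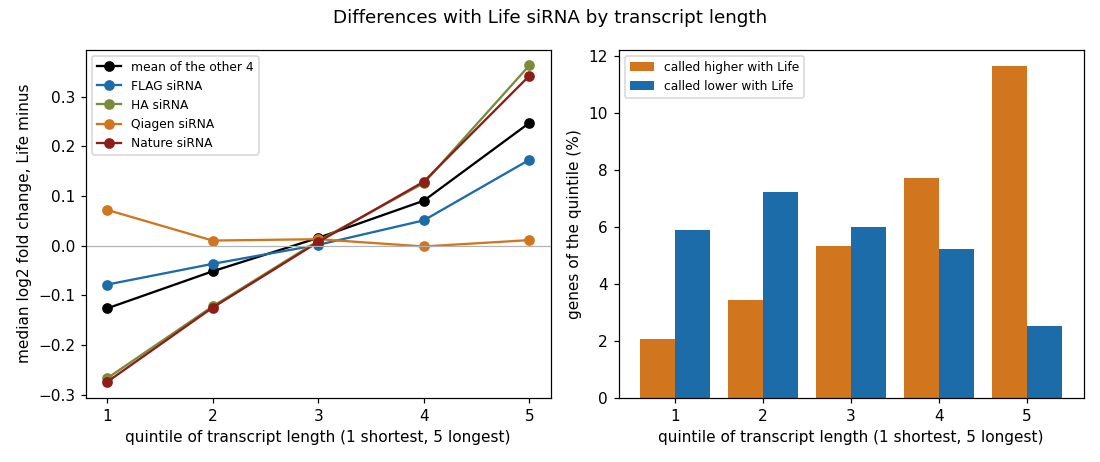
Median log2 fold change of Life siRNA against each siRNA and against their mean (left) and percentage of genes called in each direction against the mean (right), by quintile of transcript length. Against the mean the median runs from -0.13 to 0.25, and against Qiagen siRNA from 0.07 to 0.01.

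Against the single siRNAs, edgeR called 503 genes for FLAG (3.37%), 1602 for HA (10.7%), 1089 for Qiagen (7.3%) and 1955 for Nature siRNA (13.1%). Lower genes outnumbered higher ones against FLAG (333 lower, 170 higher), and against Nature siRNA 1038 were higher and 917 lower. That balance turned with the length trend removed (1062 higher, 1228 lower) and without Nature clone 14 (1219 higher, 1244 lower). The count for Nature siRNA was the highest of the 4 here, but without Nature clone 12 it was 617, below the 1911 for HA and 1162 for Qiagen siRNA in the same fit. The counts share the Life libraries and were not compared by a test.

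The gene lists below were written with earlier results of these data known, and are described by counts beside a background of 5.74% of tested genes called higher and 5.15% lower and a median log2 fold change of 0.03 over all genes. EdgeR called 0 of the 7 CDK inhibitors tested, with 1 higher and 1 lower at an unadjusted p below 0.05 and 1 of each by DESeq2. Cdkn1a (p21) was at 0.36 (edgeR adjusted p = 0.0782). Of 13 genes of the RB and E2F family, Rb1 (0.68, SE 0.13, adjusted p = 0.00366) and Tfdp2, a partner of E2F factors (0.53, adjusted p = 0.0229), were higher. EdgeR called 0 of them lower, with 1 at an unadjusted p below 0.05 and 1 by DESeq2. Of 9 genes of cyclins E and A and CDK2 regulation, Cks1b and Cdk2 were lower and Fbxw7, a subunit of the ubiquitin ligase that degrades cyclin E, was higher (0.41, adjusted p = 0.0133). Cks1b, which encodes the CDK subunit that helps SKP2 recognise p27, stood at 91.5 and 107.3 CPM with Life siRNA against 159.7 to 273 CPM (-1.05, SE 0.14, edgeR adjusted p = 0.000332). Cdk2 stood at 57.7 and 60.7 CPM against 81.7 to 105.8 CPM (-0.59, SE 0.12, adjusted p = 0.00476). Both have the heptamer once in the 3′UTR, as does Tfdp2, which was higher.

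Genes of DNA replication and mitosis lay mostly below 0 with few calls. Of 36 replication genes 30 had a negative log2 fold change, against 6867 of all 14924 genes tested, and the median was -0.17. EdgeR called 4 lower and 0 higher (10 and 1 at an unadjusted p below 0.05, 5 and 0 by DESeq2). The histone chaperone gene Asf1b had the largest fall: it stood at 12.0 and 18.9 CPM with Life siRNA and at up to 48.6 and 90.8 CPM with the others (-1.62, SE 0.15, adjusted p = 1.7e-05). The difference from Nature siRNA was -0.39 (adjusted p = 0.156), and Asf1b has the heptamer 2 times in its 3′UTR. The licensing factors Cdt1 (-0.65, adjusted p = 0.0123) and Orc1 (-0.47, adjusted p = 0.0479) and the ribonucleotide reductase subunit Rrm2 (-0.60, adjusted p = 0.0448) were the others. Of 26 mitotic genes 20 were negative, with a median of -0.21, and edgeR called 3 lower and 0 higher (8 and 0 at an unadjusted p below 0.05, 5 and 0 by DESeq2). The 3 were the centromeric histone Cenpa (-0.70), the kinesin Kif20a (-0.47) and the checkpoint kinase Bub1b (-0.41).

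Apoptosis genes moved in both directions. Of 25 pro-apoptotic genes and caspases 4 were higher and 1 lower, with a median of 0.21. Bak1, a pore-forming effector at the mitochondrion, was the lower one, at 58.1 and 42.4 CPM with Life siRNA against 79.7 to 110.3 CPM (-1.01, SE 0.13, edgeR adjusted p = 0.000254). The executioner caspase gene Casp6 (0.61, adjusted p = 0.00169), the BH3-only gene Bmf (1.57, adjusted p = 0.00832) and the initiator caspase gene Casp9 (0.41, adjusted p = 0.0399) were higher. Of 9 anti-apoptotic genes the BCL2 relative Mcl1 was lower, at 167.5 and 180.6 CPM against 224.4 to 279.2 CPM (-0.55, SE 0.11, adjusted p = 0.00587), and the inhibitors Xiap (0.77) and Birc3 (0.69) were higher. Of 21 p53 targets, Plk2 was lower (-0.81, adjusted p = 0.00424), and Sesn1 (0.61), Eda2r (0.94) and Trp53inp1 (1.15) were higher.

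Sensors of foreign RNA are of interest for any siRNA. Of 26 interferon and RNA sensor genes edgeR called 3 higher and 0 lower (5 and 0 at an unadjusted p below 0.05, 4 and 0 by DESeq2), with a median of 0.23. Ifit3, an interferon-induced gene, stood at 9.12 and 5.49 CPM with Life siRNA against 1.24 to 5.04 CPM in the other 8 libraries (1.51, SE 0.20, edgeR adjusted p = 0.000328). Tlr3, a receptor for double-stranded RNA, was at 0.85 (adjusted p = 0.0161) and Irf9 at 0.55 (adjusted p = 0.043). Of 13 genes of the RNA interference machinery edgeR called 0, with 2 at an unadjusted p below 0.05 and 1 by DESeq2. It also called 0 of 23 genes of the integrated stress and unfolded protein responses (4 unadjusted, 2 by DESeq2) and 0 of 24 of cholesterol biosynthesis (3 unadjusted, 1 by DESeq2). Of 19 NF-kB and chemokine targets 1, Birc3, was higher.

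Among signalling genes, 4 of 20 genes of RAS-MAPK output were higher and 1 lower. The transcription factor Etv1 (0.68), the early response gene Ier3 (0.72) and the EGF receptor ligand Ereg (0.88) were among the higher, and Myc was the lower one (-0.48, adjusted p = 0.0451). Of 20 TGF-beta and BMP genes, the shared mediator Smad4 was lower, at 56.2 and 46.5 CPM against 68.2 to 87.5 CPM (-0.63, SE 0.11, edgeR adjusted p = 0.0019). Smad5 (0.51), Smad3 (0.66) and the receptor Tgfbr1 (0.57) were higher. Of 25 extracellular matrix and contractile genes 3 were higher, Col5a1 among them (0.83, adjusted p = 0.00184), and 2 were lower. These were the secreted matricellular genes Cyr61 (-0.75, adjusted p = 0.0471) and Ctgf (adjusted p = 0.00651), which stood at 117.5 and 0.50 CPM with Life siRNA against 155.4 to 277.6 CPM in clone 12 and 0.65 to 2.34 CPM in clone 14. The background of higher calls among long transcripts applies to these lists too: the 38 list members called higher had a median transcript of 4524.5 bases, the 23 called lower 2387 and the 348 not called 2679.5.

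Of 15 heat shock genes edgeR called 2 lower and 0 higher, with 3 and 2 at an unadjusted p below 0.05 and 2 and 0 by DESeq2. Hsp90ab1, a cytosolic HSP90 chaperone, stood at 3530 CPM in clone 12 and 2399 in clone 14 with Life siRNA, against 4771 to 5216 and 3866 to 4139 CPM with the others (-0.62, SE 0.11, edgeR adjusted p = 0.00228). The mitochondrial chaperone Hspd1 was at -0.41 (adjusted p = 0.015). Of 25 glycolysis and hypoxia genes 4 were higher, with hexokinase Hk1 at 0.65 (adjusted p = 0.00436), and the oxidoreductase Ero1l was lower (-0.64, adjusted p = 0.00136). Of 20 lysosome and autophagy genes 2 were higher and the proton pump subunit Atp6v0d1 was lower (-0.76, adjusted p = 0.0218). Over all lists, 9 of 23 members called lower have the heptamer in the 3′UTR, against 4 of 38 called higher and 36 of 348 not called. Ccnd3 and Asf1b are among the 9 and were also among the 30 genes that chose it. The 4 higher members with the heptamer are Ccnd2, Tfdp2, Bmf and Ereg.

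Total counts ran from 26558256 to 69442170 over the 10 libraries, with 14554 to 15871 genes counted. Besides the collagen and keratin genes given above, the mesenchymal marker Prrx1 was at 258.4 to 744.8 CPM over both clones. Of 7 epithelial markers tested edgeR called 1 higher, Krt19 (0.74, adjusted p = 0.014), and 0 lower (2 and 0 unadjusted, 1 and 0 by DESeq2). Of 11 fibroblast markers edgeR called 2 higher and 0 lower (3 and 0 unadjusted, 2 and 0 by DESeq2). Summed macrophage markers ran from 16.8 to 53.8 CPM with Life siRNA and from 9.72 to 36.8 CPM with the others, carried by Mrc1 (0.86, adjusted p = 0.0119), with Adgre1, Itgam and Tyrobp too low to be tested. Summed endothelial markers were at most 3.29 CPM and summed myogenic markers at most 1.35 CPM. Of 6 neural markers tested edgeR called 2 higher with Life siRNA, Sox2 (0.83) and Tubb3 (1.06), and 0 lower (3 and 0 unadjusted, 2 and 0 by DESeq2). Fewer cells of a type and less RNA per cell cannot be told apart in bulk libraries, and the part these markers had in the other differences was not tested.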

How the data were processed

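Raw gene counts from the authors' deposited table were used, 24079 rows by 28 libraries. The build was mm10, and HTSeq 0.6.1p1, Bowtie2 2.2.3, TopHat2 2.0.13, FastQC and CASAVA 1.8.2 are listed, per the submitters' processing notes. The sources used here give neither strand setting nor annotation, so overlapping, antisense and near-identical genes may share reads. The 22 rows without a gene ID (0.00586% to 0.00946% of a library) carry a symbol and were kept. Gene IDs were matched to RefSeq's GRCm38.p6 table for 23977 rows, which gave gene coordinates; 17 symbols occurred more than once.

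Counts were fitted with edgeR 4.0.16 in R 4.3.3: filterByExpr, TMM, and a robust quasi-likelihood fit of 24 libraries (all but the 4 SCR libraries, to share the estimate of spread) in 13 groups (16 coefficients, leaving 8 residual degrees of freedom). Clone was a block because each clone gave 1 library per siRNA; deviations from the siRNA means correlated between libraries of the same clone for every pair of the 5 siRNAs (0.86 to 0.93). Standard errors are the log2 fold change over the square root of F, and CPM uses TMM sizes. Log2 fold changes of a clone alone used a prior count of 2. The biological coefficient of variation was 15.3%, and no pair of the 10 libraries was within sampling noise. The fit was tested on simulated data.

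Named genes were the D cyclins, the 12 lowest and 12 highest called genes with at least 5 CPM and the Life library outside the range of the other 4 in each clone, and at most 4 genes of lowest p from each list. Members, lists and contrasts were chosen with earlier results of these data known, and the heptamer and length descriptions after seeing the values. GENCODE M21 gave 1 transcript per gene, the APPRIS principal one with the longest 3′UTR; 92.9% of tested genes had a transcript. Alternatives were other scaling, filters, dispersion, libraries, DESeq2 1.42.0, no block, each siRNA and each library left out, and, added after seeing the data, fits without libraries of over 2% Rn45s, without the Rn45s and Mir6236 rows, and without the length trend.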

Additional observations from a re-analysis of the deposited data

How the results depend on the processing

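With 1 library per clone and siRNA, the counts of calls depended on the clone block and on single libraries. Without the replicate block, edgeR called 119 genes for Life against the mean of the other 4 (108 lower, 11 higher), 204 against Nature, 64 against FLAG, 101 against HA and 122 against Qiagen siRNA, because the difference between clones then entered the spread. Leaving out 1 library at a time gave 269 to 2100 genes for the mean of 4, 617 to 2463 for Nature, 108 to 547 for FLAG, 251 to 1917 for HA and 253 to 1162 for Qiagen; these fits hold 1 library in an arm, which is assumed to vary like the other groups. Such fits gave the lowest counts: without Life clone 14 for the mean and for Qiagen siRNA, without Nature clone 12, and without HA clone 14. For FLAG siRNA the lowest count came without FLAG clone 14 and equally without Life clone 14. The highest count for Nature siRNA came without Nature clone 14. Dropping the 3 libraries above 2% Rn45s, the counts were 238, 1023 for Nature, 68 for FLAG, 112 for HA and 177 for Qiagen. DESeq2 called 943 genes against FLAG, 2478 against HA and 1644 against Qiagen siRNA, and with the length trend removed 851 were called against FLAG and 1765 against Qiagen. The cause of these last differences was not tested. For the mean of 4, the other alternatives gave 1181 to 2279 genes, within 1.5 times of 1625. No named gene of the D cyclins or of the 12 lowest and 12 highest changed direction in any alternative run. RLE size factors moved all genes by 0.02 on the log2 scale relative to TMM. At 26558256 counts or more, genes below about 1 CPM carry the largest counting errors.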
